A study of Mus musculus with 6 samples.

Results

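Ret and Gfra1 encode the receptor tyrosine kinase and the co-receptor through which the growth factor GDNF acts on the ureteric bud, the epithelium that branches into the collecting ducts of the kidney. They were taken by name and are 2 of the 17189 genes in the deposited tables. Both genes passed the filter on low counts. RNA was sequenced from fluorescence-sorted bud cells of mouse embryos at day E16.5, with no treatment, in 3 control and 3 conditional knockout (cKO) libraries. Control embryos had the genotype Hoxb7Cre-GFP+ with Ash2l F/+, so they carried the Cre transgene and 1 floxed Ash2l allele. The cKO embryos had the same transgene with Ash2l F/F. The Hoxb7 promoter drives Cre and GFP in the ureteric lineage, so tip and stalk cells were collected together. The sources used here name no strain. The labels call the replicates biological, but no source says whether a replicate was 1 embryo or a pool. The spread behind each p-value is that of these 6 libraries, and how much of it is technical is not known.

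GDNF is made by the mesenchyme around the bud. GFRA1, which is held on the cell surface by a lipid anchor, binds GDNF and brings it to RET, and the paired RET molecules then phosphorylate each other and switch on the ERK and PI3K pathways. In the kidney RET is concentrated at the bud tips, and loss of GDNF, GFRA1 or RET prevents or reduces bud outgrowth and branching. ASH2L belongs to every complex of the MLL/SET1 family, which place methyl groups on lysine 4 of histone H3 near active start sites, and some of these complexes are brought to DNA by proteins that bind CG dinucleotides. The study's title names RET/GFRA1 signalling as the route by which ASH2L acts on the bud, and the comparison of the genotypes addresses whether the RNA of both receptors differs.

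A Gfra1 start site is shown, with CG dinucleotides in capitals, because Gfra1 alone of the pair had an entry among the RefSeq promoters used. The stretch is the 62 bases directly upstream of a RefSeq start of Gfra1, at chr19:58455399-58455460 on the minus strand of GRCm38.p6, and was limited to bases that are in no annotated untranslated exon. It ends where an annotated untranslated exon of Gfra1 lies further upstream, so an upstream start is annotated too. Which start these cells used was not tested. The deposited tables were made on another build, GRCm39. Of 32851 RefSeq promoter windows, 71.2% hold a CG in the same stretch.
Gfra1: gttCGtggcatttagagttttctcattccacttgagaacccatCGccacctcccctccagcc
In the full window of 300 bases around that start there are 12 CG dinucleotides and 54.0% G or C bases. The median over all windows is 7 CG, 94.6% of windows hold at least 1, and 60.4% hold fewer than Gfra1. CG reads the same on both strands. The table holds no match for Ret.

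Libraries had 9620235 to 10538314 counts. Ash2l, the targeted gene, averaged 175 ± 15.6 CPM in control libraries (SD, n = 3; CPM are counts scaled to library size with TMM factors), and fell to 32.4 ± 12.6 CPM with the floxed pair (n = 3; edgeR adjusted p = 0.00786). In cKO replicate 3, 1453 of 11738 genes with more than 10 counts in every other library were listed at 0 (12.4%), whereas the same count gave 0 to 3 genes for each of the others. Ret and Gfra1 results are therefore given with and without it. Reads of the Y-linked genes Ddx3y, Uty and Kdm5d were present in every control library and at 0 in every cKO library, while Eif2s3y had 504 counts in cKO replicate 3 and 0 in the other cKO libraries. The first 3 of these genes thus divided the libraries as the genotype did, and Eif2s3y, at 439 to 815 counts in controls, did not. For Ddx3y, Uty and Kdm5d, the 0 in cKO replicate 3 stands in the library with many genes listed at 0. By these reads embryo sex went with genotype at least in part. In fits without cKO replicate 3, each of these Y-linked genes had reads in every control library and 0 in every cKO library. By these reads, genotype and embryo sex cannot be told apart in those fits. The part of sex in the Ret and Gfra1 differences was not tested. Epithelial genes were abundant: the summed level of 10 (among them Cdh1, Epcam and Krt8) was 5627 to 6779 CPM in controls and 4299 to 5178 CPM in cKO.

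Both receptor genes were lower in all 3 cKO libraries than in any control, by about the same amount, and the test called Gfra1 alone. Per gene length, Gfra1 RNA was the more abundant of the pair. Its deposited FPKM (counts scaled by gene length and library size) was 149, 171 and 181 in control replicates 1, 2 and 3, and 89.3, 101 and 69.3 in cKO replicates 1, 2 and 3. The lowest control value lay above the highest cKO value. Gfra1 (Entrez Gene 14585) fell from 935 ± 94.4 to 471 ± 87.2 CPM (SD, n = 3 each), a log2 fold change of -0.99 (SE 0.157, 95% interval -1.36 to -0.62, edgeR adjusted p = 0.0176).

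Ret FPKM was 72.1, 82.2 and 100.9 in control replicates 1, 2 and 3, and 44.9, 51.9 and 24.6 in cKO replicates 1, 2 and 3. The groups did not overlap here either, and cKO replicate 3 was the lowest library for both genes. Ret (Entrez Gene 19713) was at 635 ± 114 CPM in controls and 294 ± 103 CPM in cKO. Its log2 fold change of -1.11 (SE 0.283, 95% interval -1.79 to -0.44) did not pass the threshold of 0.05 after adjustment over 13047 genes (edgeR adjusted p = 0.0666, unadjusted p = 0.00609). Over all genes tested, 3.59% were called to have fallen. Every cKO library lay below every control library in 20.7% of them, and above in 16.7%, so a lack of overlap was common. In bulk RNA, fewer tip cells among those sorted and less receptor RNA per tip cell cannot be told apart.

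**Figure D1:**
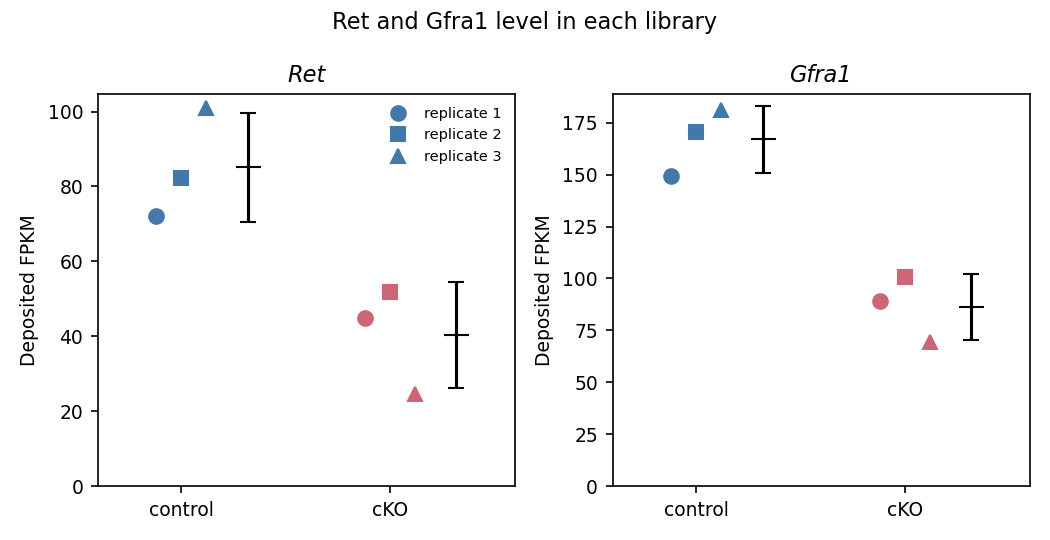
Deposited FPKM of Ret (left) and Gfra1 (right) on linear axes from 0, with 1 point for each library and its replicate number as the symbol; the bars are the mean ± SD of 3 libraries. Every cKO point lies below every control point, and cKO replicate 3 is the lowest for both genes.

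Counting error was small beside the differences between libraries. Ret had 1775 to 7783 counts and Gfra1 3744 to 10476 counts per library, and the exact 95% Poisson intervals spanned at most ± 4.68% of the count. They hold counting error alone, and some reads may be PCR copies of 1 molecule. The coefficient of variation of Ret was 18.0% among controls and 35.0% among cKO libraries, and that of Gfra1 was 10.1% and 18.5%.

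Ret varied more than Gfra1 among the cKO libraries. As a share of the control mean CPM, Ret was at 52.3% and 58.6% in cKO replicates 1 and 2 and at 27.9% in cKO replicate 3. Gfra1 was at 53.1%, 58.0% and 40.0%. In cKO replicates 1 and 2 the receptor and co-receptor thus stood at nearly the same share of their control levels, while in cKO replicate 3 Ret was the lower of the pair. Without cKO replicate 3, Ret fell, with a log2 fold change of -0.86 (SE 0.138, edgeR adjusted p = 0.000497), and Gfra1 fell by 0.86 (SE 0.114, adjusted p = 0.00011). In that fit 14.9% of the 13660 genes tested fell and 13.7% rose. By the Y-linked reads, genotype and embryo sex cannot be told apart there. Without any other single library the adjusted p of Ret lay between 0.104 and 0.226, and that of Gfra1 between 0.0477 (without cKO replicate 2) and 0.0863 (without control replicate 3). Of the 6 fits with a library left out, Gfra1 was called in 2 and Ret in 1. DESeq2 on the 6 libraries called both, with adjusted p = 0.00054 for Ret and 1.47e-08 for Gfra1.

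**Figure D2:**
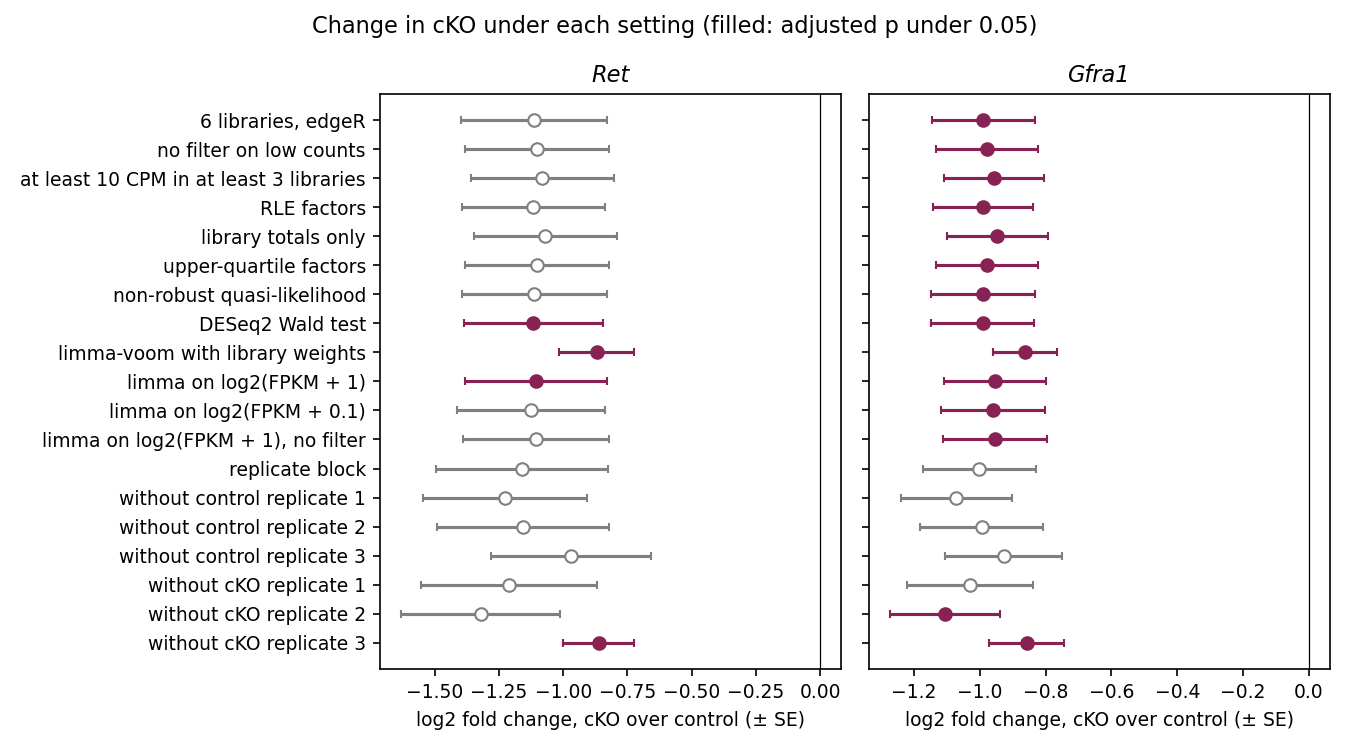
Log2 fold change of Ret (left) and Gfra1 (right) in cKO over control, with SE bars, under each test, filter, scaling and left-out library; filled points had an adjusted p under 0.05. All values are below 0, from -1.32 to -0.86 for Ret and from -1.11 to -0.86 for Gfra1.

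Both genes stayed among the better-expressed genes of the cKO cells. By FPKM within a library, 91.8% to 94.8% of all 17189 genes lay below Ret in controls and 78.8% to 88.6% in cKO. For Gfra1 the shares were 96.6% to 97.5% in controls and 91.3% to 94.5% in cKO. The order of the pair was the same in all 6 libraries, with Gfra1 above Ret.

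The balance of co-receptor to receptor was compared within each library, where library scaling cancels. Gfra1 FPKM divided by Ret FPKM was 2.07, 2.08 and 1.79 in control replicates 1, 2 and 3, and 1.99, 1.94 and 2.81 in cKO replicates 1, 2 and 3. The cKO ratios of replicates 1 and 2 lay inside the control range and cKO replicate 3 lay above it. The mean log2 ratio was 0.98 ± 0.12 in controls and 1.15 ± 0.30 in cKO (SD, n = 3 each; difference 0.17, two-sided exact permutation p = 0.6). Without cKO replicate 3 the difference was -0.0060. With 3 libraries against 3 this exact test cannot go below p = 0.1, and a p that misses the threshold does not show that the ratio was equal.

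The levels were also set against the epithelial RNA of the same library. Relative to the mean log2 FPKM of the 10 epithelial genes, Ret was -1.07, -1.12 and -0.74 in control replicates 1, 2 and 3, and -1.66, -1.26 and -2.42 in cKO replicates 1, 2 and 3. Gfra1 was -0.02, -0.06 and 0.10 in the controls, and -0.66, -0.30 and -0.92 in cKO. Every cKO value of both genes was below every control value on this scale too. The difference was -0.80 for Ret and -0.64 for Gfra1, each with a two-sided exact permutation p = 0.1, the smallest possible here, and without cKO replicate 3 it was -0.48 and -0.49. The epithelial mean was itself lower in cKO by a log2 difference of -0.33, with no overlap. Of its 10 genes Epcam alone was called (-0.61, SE 0.0983, edgeR adjusted p = 0.018), a share of 10% beside 7.11% of all genes. In the fit without cKO replicate 3, 4 of the 10 fell, namely Cdh1, Epcam, Spint1 and Esrp1, where 14.9% of all genes did.

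A second reference, chosen after the data were seen, was the mean of 9 other genes that mark the bud tip (among them Wnt11, Etv4, Etv5, Sox9 and Tmem59l). That mean was 5.79 ± 0.19 in controls and 5.68 ± 0.18 in cKO on the log2 FPKM scale, and the groups overlapped. Against it, Ret was 0.52 to 0.64 in controls, and 0.01, -0.11 and -1.13 in cKO replicates 1, 2 and 3. Gfra1 was 1.48 to 1.70 in controls and 0.36 to 1.00 in cKO. The differences were -1.01 for Ret and -0.85 for Gfra1 (two-sided exact permutation p = 0.1 each), and -0.65 and -0.66 without cKO replicate 3. Ret and Gfra1 were therefore lower against these tip genes as a group, which moved in both directions.

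**Figure D3:**
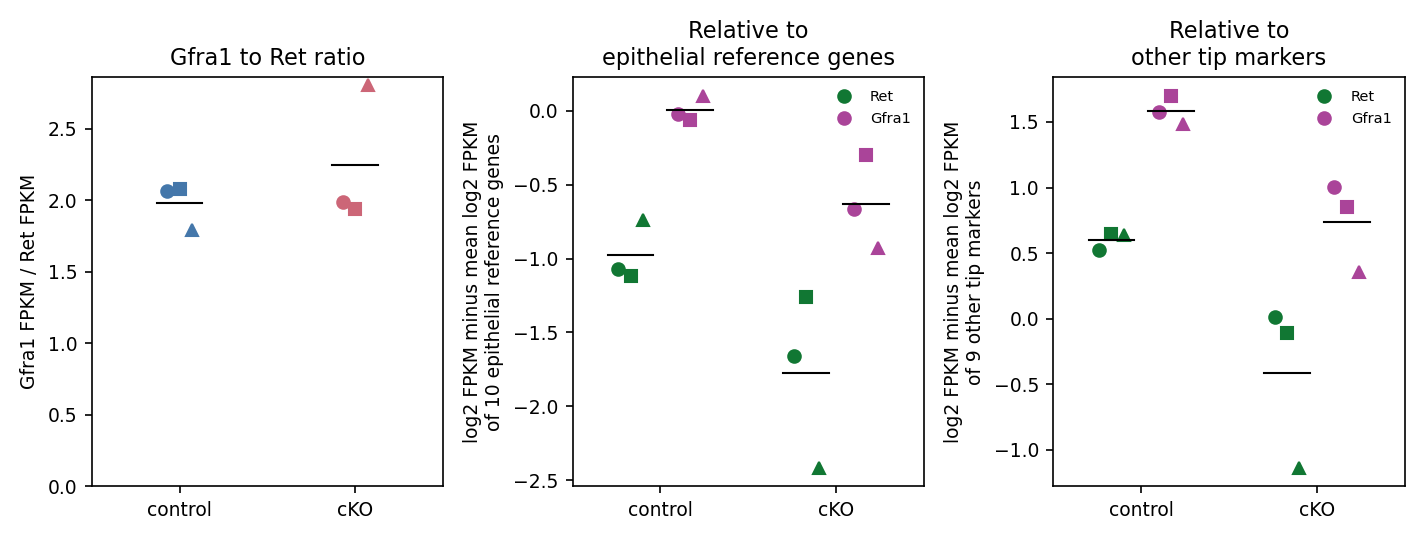
Gfra1 FPKM over Ret FPKM (left, linear axis from 0), and log2 FPKM of Ret and Gfra1 minus the mean log2 FPKM of 10 epithelial genes (middle) or 9 other tip genes (right); symbols mark replicates 1 (circle), 2 (square) and 3 (triangle), and lines the group means. The ratio of cKO replicate 3, 2.81, stands above the other 5 libraries, and on both relative scales the cKO points of each gene lie below its control points.

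Among the tip genes themselves, 3 of 11 fell (Gfra1, Wnt11 and Etv5), Tmem59l rose and 7 were not called, Ret among them, a share of 36.4% called beside 7.11% of all genes. Tmem59l, which encodes a membrane protein, rose from 55.9 ± 3.23 to 109.7 ± 19.0 CPM (edgeR adjusted p = 0.0203; called in 2 of 6 fits with a library left out, with up to 0.11 without control replicate 2). The median log2 fold change was -0.37, against -0.04 over all genes tested. Without cKO replicate 3, 4 of these 11 fell and 2 rose, or 54.5% beside 28.5% of all genes.

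The ligands of the family act through RET with their own co-receptors. Gdnf, the ligand of GFRA1, was listed at 0 in the 3 controls and at 3, 12 and 0 counts in cKO replicates 1, 2 and 3. A count of 0 allows up to 3 counts, which is 0.285 to 0.295 CPM in a control library. Nrtn, which encodes neurturin and pairs mainly with GFRA2, had an FPKM of 37.1, 38.1 and 46.2 in controls and 29.9, 43.1 and 61.6 in cKO, and the groups overlapped (edgeR adjusted p = 0.87). Artn, encoding artemin, the ligand of GFRA3, had 97 to 114 counts in controls and 81, 69 and 0 counts in cKO, the 0 being in the library with many missing genes. Pspn, encoding persephin, the ligand of GFRA4, was too low to test, with 3, 6 and 27 control counts and 0, 3 and 2 cKO counts.

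Gdf15, a stress-induced cytokine of the same wider family that signals through RET with the co-receptor GFRAL, was the ligand gene that rose. Its counts per control library were 208, 622 and 839, while the cKO libraries gave 5827, 5647 and 5635. Its level went from 53.9 ± 31.1 to 577 ± 16.9 CPM, a log2 fold change of 3.42 (SE 0.469, edgeR adjusted p = 0.0115). The call held in 4 of 6 fits with a library left out, with the highest adjusted p, 0.0691, without control replicate 2. Gfral was not among the 17189 genes by that name, so it was not analysed here.

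Of the other co-receptors, Gfra4 fell with Gfra1. Gfra4 FPKM was 14.8, 15.4 and 11.6 in controls and 3.93, 4.38 and 4.84 in cKO replicates 1, 2 and 3, with no overlap. It changed by -1.71 on the log2 scale (SE 0.348, edgeR adjusted p = 0.0372), and in fits with a library left out it was called only without cKO replicate 3 (0.000427, against up to 0.198 without control replicate 2). In both groups Gfra4 was the lower of the co-receptor genes tested. Gfra2 was at 0 in all controls and had 0, 16 and 163 counts in cKO replicates 1, 2 and 3. Gfra3 had 10 counts in cKO replicate 2 and 0 in every other library. Neither was tested.

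Of 4 tested genes for surface proteins that bind GDNF, GFRA1 or RET, 1 fell and none rose, a share of 25% called beside 7.11% of all genes. Without cKO replicate 3, 3 of the 4 fell, where 14.9% of all genes did. Sorl1, a sorting receptor that carries GFRA1 into endosomes, fell from 55.0 ± 6.81 CPM to 25.4 ± 4.66 CPM, by 1.11 on the log2 scale (SE 0.220, edgeR adjusted p = 0.0335; 0.158 without control replicate 2). Lrig1, a membrane protein that restrains RET, was at 41.6 ± 9.0 CPM in controls and 16.8 ± 11.1 CPM in cKO, and was not called with 6 libraries (adjusted p = 0.217; 0.0149 without cKO replicate 3). Ncam1, an adhesion molecule that can serve as a GDNF receptor with GFRA1, was not called (0.29, SE 0.329), and Sdc3, a syndecan that binds GDNF, was listed at 0 in cKO replicate 3 and fell without it (adjusted p = 0.00147, unlike 0.399 with 6 libraries).

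In all, 65 genes of the GDNF and RET pathway from ligand to feedback, Ret and Gfra1 included, were in the tables and 60 were tested. Of these 10 fell, 3 rose and 47 were not called, a share of 21.7% called. Over all 13047 genes tested the share was 7.11%, with 3.59% that fell and 3.52% that rose. The lists were chosen with earlier results of these data known, and the difference between these shares was not tested. With a filter of at least 10 CPM in at least 3 libraries, 14 of 55 pathway genes and 990 of 9851 genes were called. The median log2 fold change of the 60 was -0.19, against -0.04 over all genes. Without cKO replicate 3, 16 fell and 8 rose, or 40.0% of the 60 against 28.5% of all genes tested. Leaving out any other single library left 4 or 5 of 60 or 61 tested pathway genes called. Those fits called 121 to 443 of 13269 to 13625 genes.

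Among 27 tested adaptors and effectors of RET inside the cell, 3 fell and none rose, a share of 11.1% called beside 7.11% of all genes. Grb10 and Grb7 encode related adaptors that bind phosphorylated receptors, and Nras encodes a RAS protein upstream of ERK. Grb10 fell from 468 ± 37.4 CPM in controls to 50.7 ± 24.8 CPM in cKO (log2 fold change -3.21, SE 0.344), Nras from 131 ± 5.55 to 30.9 ± 7.73 CPM (-2.08, SE 0.210) and Grb7 from 459 ± 8.38 to 222 ± 63.7 CPM (-1.05, SE 0.195; edgeR adjusted p = 0.00644, 0.00603 and 0.0285). Grb10 and Nras were called in all 6 fits with a library left out, and Grb7 was called only without cKO replicate 3 (up to 0.124 without control replicate 3). Genes for the core adaptors Shc1 (log2 fold change 0.20, SE 0.191) and Grb2 (0.08, SE 0.137) were not called. Without cKO replicate 3, Grb7, Grb10 and Nras fell and 4 rose, namely Shc1 (adjusted p = 0.0225), Gab2 (0.0458), Pik3r1 (0.0116) and Stat3 (0.00672), or 25.9% of the 27 beside 28.5% of all genes.

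All 6 tested genes for the ubiquitin ligases and endocytic adaptors that take RET from the surface had a negative log2 fold change, as did 52.3% of all genes tested, and 1 of them fell (3.59% of all genes). Nedd4, a ubiquitin ligase, fell from 834 ± 37.3 to 521 ± 25.1 CPM (-0.68, SE 0.0819, edgeR adjusted p = 0.00827; 0.0577 without control replicate 3). Sh3kbp1, the endocytic adaptor CIN85, was at 37.3 ± 3.12 and 18.6 ± 4.06 CPM and was not called (adjusted p = 0.0648; 0.00558 without cKO replicate 3).

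Of 11 tested genes known to follow GDNF and RET in the bud, 3 fell, 1 rose and 7 were not called, a share of 36.4% called beside 7.11% of all genes. When cKO replicate 3 was left out, 5 fell and 1 rose (54.5%, beside 28.5%). Wnt11, a ligand that the tip sends to the mesenchyme, fell: its FPKM was 524, 527 and 578 in controls and 159, 171 and 197 in cKO (log2 fold change -1.67, SE 0.105, edgeR adjusted p = 0.00341). Etv5, an ETS transcription factor, had an FPKM of 110, 120 and 146 in controls and 64.9, 78.5 and 76.9 in cKO, and fell by 0.81 (SE 0.135, adjusted p = 0.0203). Mmp14, a matrix protease, fell from 366 ± 38.7 to 120 ± 50.9 CPM (adjusted p = 0.0259). Myb and Met, a transcription factor and a receptor kinase gene, were listed at 0 in cKO replicate 3 and were not called. Without that library Myb fell (edgeR adjusted p = 0.0103) and Met was not called (0.304).

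Feedback inhibitors, which dampen RET signalling and many of which are induced by ERK, included 2 that rose and none that fell among 9 (22.2% called, beside 7.11% of all genes), Dusp6 being in the previous list as well. Dusp6, a phosphatase of ERK, rose from 529 ± 88.2 to 804 ± 65.3 CPM (0.60, SE 0.137, edgeR adjusted p = 0.0496). Spry2, a Sprouty protein, rose from 183 ± 16.6 to 279 ± 40.1 CPM (0.61, SE 0.135, adjusted p = 0.0465). Spry1, the Sprouty gene known to oppose RET in the bud, had 6872 to 8396 counts in controls and 6825 to 8624 in cKO, and was not called (adjusted p = 0.593). With a library left out, Dusp6 and Spry2 were called only without cKO replicate 3, as were Etv5 and Mmp14, and their adjusted p reached 0.192 and 0.184 without control replicate 2, 0.0774 without control replicate 2 and 0.115 without control replicate 3. Wnt11 kept its call in all 6 fits.

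**Figure D4:**
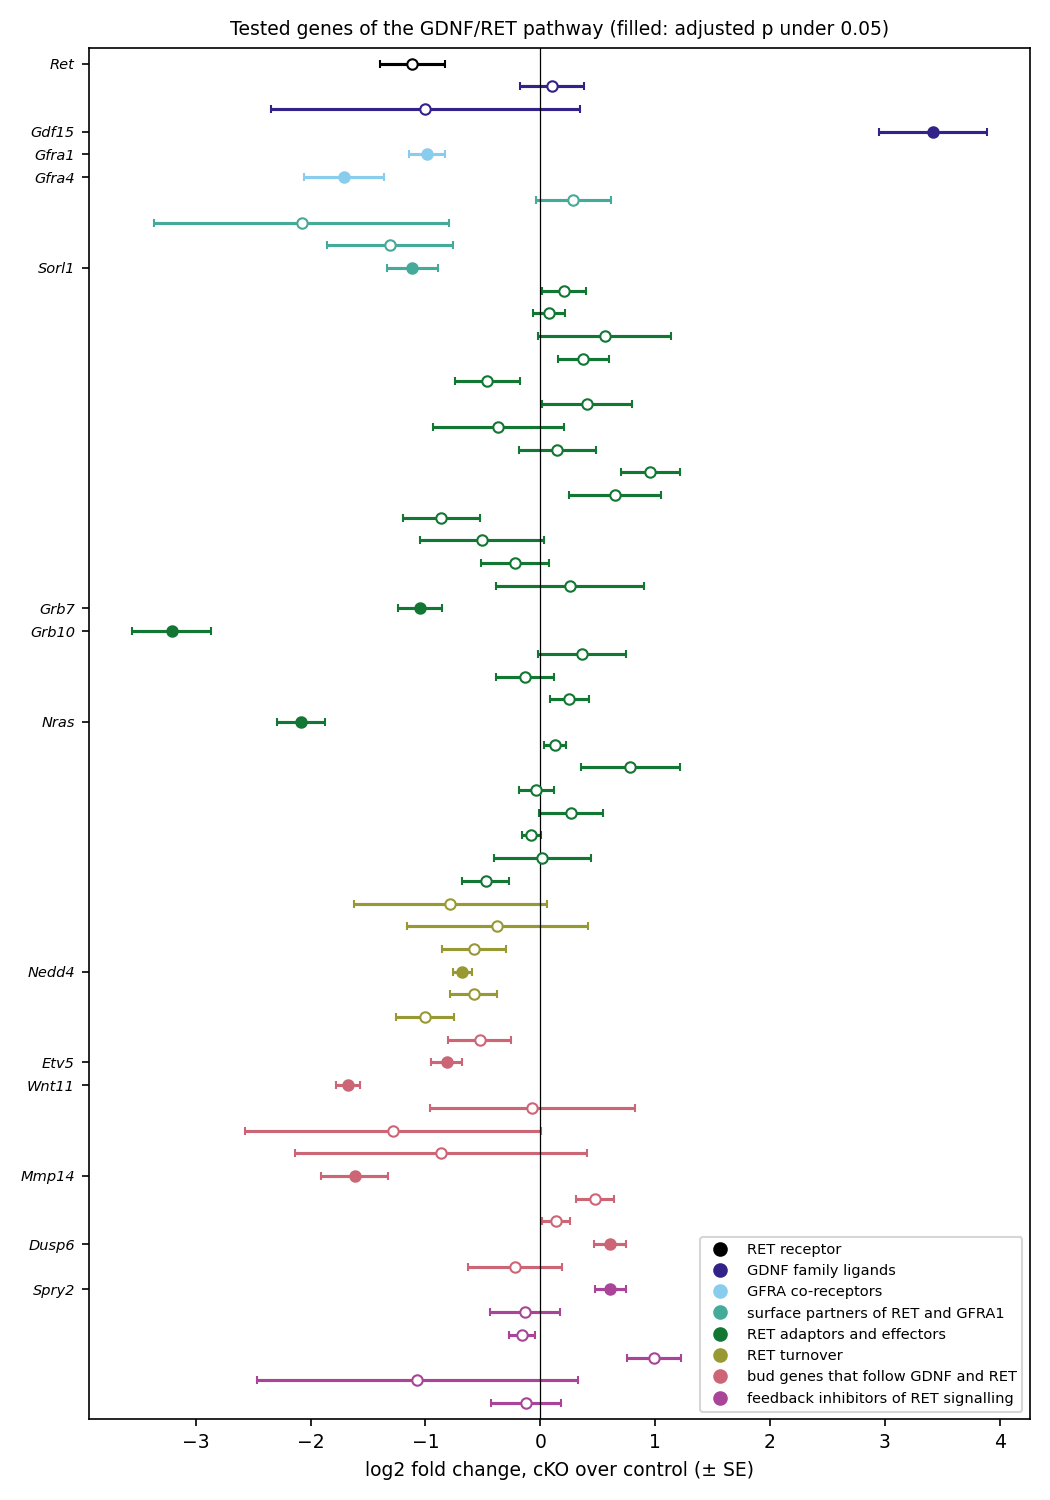
Log2 fold change in cKO over control with SE bars for the 60 tested genes of the GDNF and RET pathway, in the order receptor, ligands, co-receptors, surface partners, adaptors and effectors, turnover, bud genes that follow RET, and feedback inhibitors; filled points had an adjusted p under 0.05, and names are given for these and for Ret. The 10 filled points left of 0 include Gfra1, Grb10 and Wnt11, the 3 on the right are Gdf15, Dusp6 and Spry2, and the point of Ret is open at -1.11.

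Among 11 transcription factors and cofactors known to act upstream of Ret or Gfra1 in the bud, 1 fell and none rose, a share of 9.09% called beside 7.11% of all genes. Gata3, a zinc finger factor needed for Ret expression in the duct lineage, fell by 0.76 on the log2 scale (727 ± 54.7 CPM in controls, 429 ± 78.9 CPM in cKO; SE 0.148, edgeR adjusted p = 0.0325; 0.131 without control replicate 2). Rara, a retinoic acid receptor, was at 26.0 ± 2.61 and 10.9 ± 5.44 CPM and was not called (adjusted p = 0.16). Pax2 (-0.47, SE 0.428) and Sox9 (-0.31, SE 0.180) were not called. Without cKO replicate 3, 6 of the 11 fell, Gata3 and Rara among them, and 1 rose, while 14.9% of all genes fell and 13.7% rose.

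Genes with a pattern like that of Ret or Gfra1 were ranked by the root mean square difference between centred log2 CPM profiles over the 6 libraries, among 8122 other genes whose mean log2 CPM reached 4. Predicted gene models, with Gm or Rik symbols, were left out of these. The ranking is a description with no test. The nearest to Ret were Pkmyt1 (0.085), Josd1 (0.12), Ncapd2 (0.12), Thap11 (0.13) and Rffl (0.14), and the median over all genes compared was 0.72. The nearest to Gfra1 were Rnf186 (0.040), Prr15l (0.067), Fcgrt (0.085), Sh3kbp1 (0.091) and Nfic (0.094), with a median of 0.58. Pkmyt1 encodes a kinase that restrains entry into mitosis, Ncapd2 a condensin subunit, Fcgrt an IgG receptor of epithelia and Nfic a transcription factor. Gfra1 was rank 42 from Ret and Ret was rank 150 from Gfra1 (0.20).

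These ranks turned on cKO replicate 3. Without it Gfra1 moved to rank 8 from Ret and Ret to rank 24 from Gfra1 (0.077), and Etv5 became the nearest gene to Ret (0.033), having been rank 688 with 6 libraries (0.40). With any other library left out, Gfra1 was rank 56 to 99 from Ret, and Ret was rank 181 to 302 from Gfra1. In cKO replicate 3 Etv5 was at 370 CPM, close to 322 and 377 CPM in cKO replicates 1 and 2, whereas Ret was at 177 CPM against 332 and 372.

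**Figure D5:**
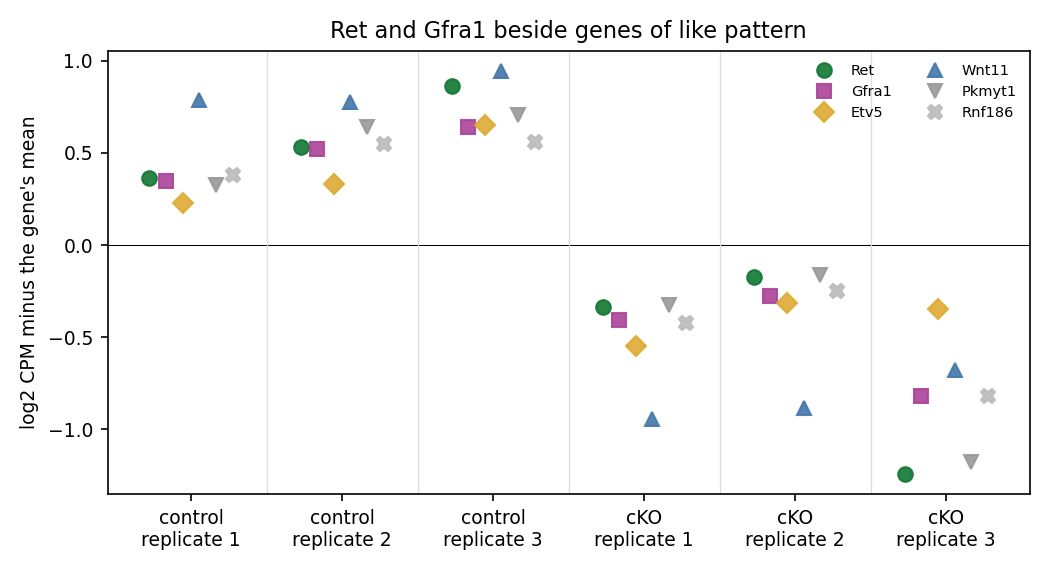
Log2 CPM minus the gene's own mean in each of the 6 libraries for Ret, Gfra1, the nearest gene to each (Pkmyt1 and Rnf186), Etv5 and Wnt11. Ret, Gfra1, Pkmyt1 and Rnf186 run close together in 5 libraries, and in cKO replicate 3 Ret and Pkmyt1 are lowest while Etv5 is highest.

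Ret was at 177 to 761 CPM, and within each library the summed markers of each cell type from outside the ureteric lineage were lower than Ret. The summed level of 9 nephron epithelium and podocyte genes was 14.9 to 22.1 CPM in controls and 39.8 to 60.2 CPM in cKO. The sum of 7 nephron progenitor genes was 11.1 to 16.0 CPM in controls and 19.7 to 25.1 CPM in cKO, with none called of 4 tested and Six2 at 0 to 7 counts. Stromal genes summed to 10.01 to 25.5 and 2.20 to 19.4 CPM, immune genes to 41.4 to 77.3 and 54.8 to 78.3 CPM, and endothelial genes to 0.786 to 4.09 and 0 to 6.20 CPM. Erythroid genes summed to 0.687 to 404 CPM in controls and 0 to 35.2 CPM in cKO. The highest of these sums was in control replicate 3, where Ret was at 761 CPM. Peripheral neurons and glia, which can also express Ret and Gfra1, were represented by 5 genes at 7.66 to 10.95 CPM in controls and 0.399 to 13.1 CPM in cKO, with Sox10 at 0 to 9 counts. The part of these cells in the Ret and Gfra1 differences was not tested.

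Markers of the stalk and collecting duct, the tissue behind the tip, had negative log2 fold changes in 8 of 9 cases (52.3% of all genes tested). Of the 9, 3 fell (Aqp3, Scnn1g and Hsd11b2; 3.59% of all genes) and none rose, with a median log2 fold change of -1.13. With a library left out, Aqp3 and Hsd11b2 were each called in 1 of 6 fits (edgeR adjusted p up to 0.138 and 0.0901, both without control replicate 2) and Scnn1g in 2 (up to 0.0692 without cKO replicate 2). Leaving out cKO replicate 3, 5 of the 9 fell, where 14.9% of all genes did. Their summed level was 1035 to 1556 CPM in controls and 633 to 729 CPM in cKO.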

How the data were processed

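The authors' files give, for each gene and library, a raw count and an FPKM value, both deposited. Per the submitters' processing notes the build was GRCm39, and the tools, given with no role or version, include HISAT2, HTSeq, DESeq and Cufflinks. Libraries came from a stranded mRNA kit per the labels' protocols. No source used here gives the strand setting of the counts, so reads of Gfra1 and those of Gm16277, an antisense gene that overlaps its end in GENCODE M21, may not be kept apart. The deposited FPKM is a rescaling of the counts (largest relative deviation 2.09e-09 over 7859 genes), not a second measurement.

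Counts were tested with edgeR 4.0.16 in R 4.3.3: filterByExpr, TMM factors, a robust quasi-likelihood F-test with group as the only term, and Benjamini-Hochberg adjustment over 13047 genes at 0.05. The SE is the log2 fold change divided by the square root of F. Ratios of FPKM were compared by an exact permutation over libraries. DESeq2 1.42.0 and limma 3.58.1 gave alternatives. No pair of replicates agreed within sampling noise: their chi-square was 9.9 to 71.7 times its degrees of freedom. On simulated data, 15.2% of genes changed 2-fold and 52.0% of those changed 4-fold were called with 6 libraries over 12379 genes, with 7.04% of calls on unchanged genes. The 5 libraries that remain when cKO replicate 3 is left out gave 62.6% and 87.0%, with 11.8% of calls on unchanged genes (12849 genes).

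The members and gene lists were chosen with earlier results of these data known. Genes named were Ret, Gfra1, Ash2l, every ligand and co-receptor, the called members of the other lists with those of smallest p up to 2, and the 5 genes nearest in pattern to each member. Other genes were named after their values were seen, and some members of the lists are not reported here by name. Promoter sequence is from RefSeq on GRCm38.p6, where 1 of the 2 members matched.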

Additional observations from a re-analysis of the deposited data

How the results depend on the processing

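Ret and Gfra1 had a negative fold change under every alternative run. Ret passed the threshold with DESeq2 (log2 fold change -1.12), limma-voom with library weights (-0.87) and limma on log2(FPKM + 1) (-1.11), and in no other fit with all 6 libraries. Log2(FPKM + 1) understates the change of low genes. With 1 library left out, the fold change was -1.32 to -0.86 for Ret and -1.11 to -0.86 for Gfra1. Genes called then numbered 121 to 3897, against 928, and pathway genes called 4 to 24, against 13. The lower counts come with fewer libraries, and the highest, without cKO replicate 3, has a cause that was not tested. Genes called numbered 2049 with DESeq2, 3337 with limma-voom and library weights and 1465 with limma on log2(FPKM + 1), and pathway genes 21 with the weights, where cKO replicate 3 had a weight of 0.0685 against 1.38 to 1.94 for the others. The difference in the log2 ratio of Gfra1 to Ret was -0.0060 to 0.26 with 1 library left out, the negative value being without cKO replicate 3.

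Replicate numbers are shared by the groups but did not pair the libraries (correlations of same-numbered deviations -0.022, 0.025 and -0.00145). With the number as a block, Gfra1 had a log2 fold change of -1.002 (edgeR adjusted p = 0.089), Ret -1.16 (0.196), 23 genes were called and 1 pathway gene. An exact paired sign-flip permutation gave p = 0.25, its smallest, for each relative level and p = 1 for the ratio.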
